A study of Mus musculus with 2 samples.

Results

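The genes described here encode the cAMP-responsive transcription factor CREB, its close relatives, its coactivators and the kinase SIK1. The 10 genes were chosen by symbol: Creb1, Crem, Atf1, Atf2 and Atf7 among the transcription factors, Crtc2, Crtc3, Crebbp and Ep300 among the coactivators, and Sik1. They are 10 of the 15574 genes with at least 1 read in either library. Messenger RNA was sequenced from T helper cells of the IL-17-producing type (Th17), made in vitro from C57BL/6 mice. The first library was labelled CREB KO and the second wildtype. Both groups shared the culture, 6 days in IL-23, IL-1 beta, TGF-beta and IL-6, and a final 4 h on plate-bound CD3 antibody. The mutant allele, the deleted stretch, any Cre driver, and the age and number of the donor mice are not stated in the labels.

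With 1 library per genotype there is no replicate error and no p-value. Each difference lies between 2 libraries, and the 95% intervals cover counting error only. How PCR copies were handled in counting is not known, and if they were counted the intervals may be too narrow. In units of 1000 reads, 23938 were assigned to genes in the library labelled CREB KO and 26525 in the wildtype library. Among 11 markers of T cells and the Th17 state, 10 were listed, and the levels below are CPM, the reads of a gene scaled to a library of 1000000. Cd4 had 815 CPM in the library labelled CREB KO and 874 in the wildtype library. The summed level of the list was 2796 CPM in the library labelled CREB KO and 4015 in the wildtype library, including Il17f at 543 in the library labelled CREB KO and 1508 in the wildtype library, and Trac had 0 reads in both. Markers of other cells were few: the B cell list had 53 reads in the library labelled CREB KO and 54 in the wildtype library with Ms4a1 and Pax5 at 0, and Lyz2, Itgam and Adgre1 of the myeloid list, Ncr1, Klrb1c and Klrk1 of the NK list, Hbb-bs of the erythroid list and Cd8a were also at 0. The summed reads of these lists in the library labelled CREB KO were 32 myeloid, 10 NK, 4 erythroid and 20 fibroblast, with 234 of Cd8b1. The wildtype library had 33 myeloid, 15 NK, 5 erythroid and 20 fibroblast reads, with 237 of Cd8b1. In bulk RNA, fewer cells of a type and less RNA per cell cannot be told apart.

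CREB, CREM and ATF1 form a subfamily of basic leucine zipper factors that bind the cAMP response element (CRE) as homodimers or heterodimers. Kinases such as protein kinase A and the calcium/calmodulin-dependent kinases phosphorylate them, which recruits the histone acetyltransferases CBP (Crebbp) and p300 (Ep300). The CRTC coactivators are held in the cytoplasm when salt-inducible kinases phosphorylate them, and calcineurin releases them to the nucleus. Sik1 is itself a well-known CREB target and so part of a negative feedback loop. In T cells both arms are engaged by antigen receptor signalling and by cAMP-raising ligands such as prostaglandin E2.

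The sequences shown first are stretches of promoters, chosen to show the start of the targeted gene and of its most highly counted relative, neither of which holds a full CRE, beside a pair of textbook targets picked because they hold one. RefSeq windows of the 250 bases before the transcription start (build GRCm38.p6) were found for 7 of the 10 genes. Each stretch is printed 5′ to 3′ on the gene's own strand and stops before the first exon annotated in GENCODE M21. The CRE is TGACGTCA and its core is TGACG, searched on both strands, so that the core of the reverse strand reads CGTCA. A full CRE contains an overlapping core on each strand. Cores and full CREs are in capitals.
Creb1 (chr1:64532554-64532644, plus strand): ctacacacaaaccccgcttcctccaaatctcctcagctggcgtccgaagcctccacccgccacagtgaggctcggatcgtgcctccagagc
Atf1 (chr15:100227609-100227818, plus strand): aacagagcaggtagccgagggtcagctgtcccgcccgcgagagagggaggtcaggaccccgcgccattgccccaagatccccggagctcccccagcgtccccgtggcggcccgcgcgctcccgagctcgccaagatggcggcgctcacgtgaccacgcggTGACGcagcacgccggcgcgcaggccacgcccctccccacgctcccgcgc
Areg (chr5:91139349-91139598, plus strand): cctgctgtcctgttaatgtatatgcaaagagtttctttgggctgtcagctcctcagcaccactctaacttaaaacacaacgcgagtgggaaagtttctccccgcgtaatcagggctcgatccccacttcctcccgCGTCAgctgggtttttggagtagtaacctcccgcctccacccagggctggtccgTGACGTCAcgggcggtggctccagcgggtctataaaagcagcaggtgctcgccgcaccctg
Dusp1 (chr17:26508520-26508722, minus strand): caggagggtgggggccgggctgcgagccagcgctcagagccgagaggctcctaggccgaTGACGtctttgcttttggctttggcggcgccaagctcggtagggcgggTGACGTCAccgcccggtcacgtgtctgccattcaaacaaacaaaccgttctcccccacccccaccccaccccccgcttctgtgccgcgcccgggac

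The search covered all 250 bases, including those not printed. Of the 7 windows, that of Atf1 held 1 core, starting at position -90 from the transcription start, and those of Creb1, Atf2, Atf7, Crtc3, Crebbp and Ep300 held none of these letters. The RefSeq windows of Crebbp and Ep300 lie downstream of the gene start in GENCODE M21, so they do not cover the bases before that start. Of the 250 bases searched, 91 for Creb1 and 210 for Atf1 lie before their gene start in GENCODE M21, and the others lie after it. None of the 7 held a full CRE. In the whole RefSeq set, 17.8% of 32851 windows held a core and 1.55% a full CRE, so 1 of 7 (14.3%) lies near the share of all windows. Of 20 textbook CREB targets with a window, 15 held a core in at least 1 window and 3 a full CRE, namely Areg, Dusp1 and Sst. These targets were listed because CREB is known to act on them, so their motif share is a description.

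Creb1, which encodes CREB and was the targeted gene (chromosome 1, 64532645 to 64604548, GRCm38), had few reads in both libraries and more of them in the library labelled CREB KO. It had 25 reads (1.04 CPM) in the library labelled CREB KO, against 13 (0.491 CPM) in the wildtype library. The ratio was 2.08 with an interval of 1.04 to 4.51. The label is not borne out by this count, and every direction below is that of the library so labelled. Of 5112 genes under 1 CPM on average, 1393 (27.2%) had a higher ratio than Creb1, but these reach down to genes with 1 read in all, fewer than Creb1 had. Of the 10462 genes averaging at least 1 CPM, 0.554% had a higher ratio, and 2.03% of those at 1 to 10 CPM were higher by 2-fold with an interval above 1. At 1.5-fold or more with an interval above 1, the rule used for calls below, 5.13% of the 5112 genes under 1 CPM were higher. The count itself was also near the floor: of all reads of Creb1, Crem and Atf1 together, Creb1 held 0.936% (exact binomial interval 0.606 to 1.38) in the library labelled CREB KO and 0.409% (0.218 to 0.698) in the wildtype library. A low count here does not show a low level of messenger RNA, because the handling of reads common to several transcripts was not tested.

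**Figure D1:**
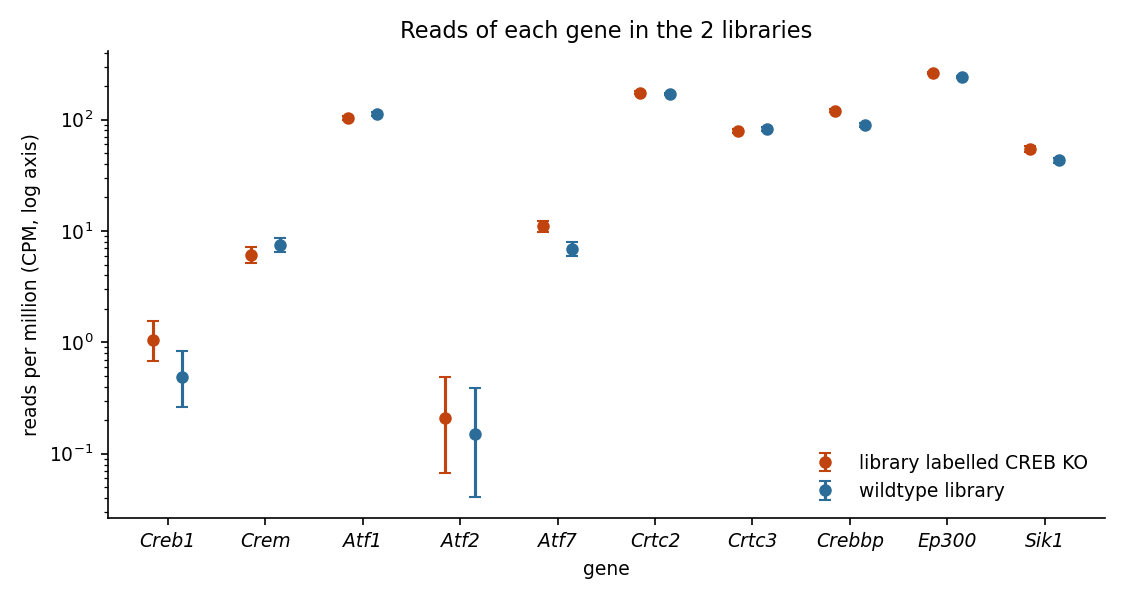
CPM of the 10 genes (log axis), with the library labelled CREB KO at the left of each pair and the wildtype library at the right. Bars are exact Poisson 95% intervals for counting error. Creb1 and Atf2 lie near or below 1 CPM in both libraries, while Atf1, Crtc2, Crebbp and Ep300 lie near or above 100 CPM.

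Neither close relative of Creb1 was higher in the library labelled CREB KO. Crem encodes both activators and the inducible repressor ICER (chromosome 18, 3266048 to 3337748). It had 147 reads (6.12 CPM) in the library labelled CREB KO, against 198 (7.48 CPM) in the wildtype library. Its ratio of 0.819 (0.656 to 1.02) was within counting error of 1. In a single random thinning of the wildtype library to the depth of the other, which discards reads, the ratio was 0.791 (0.632 to 0.987). Atf1, which binds the same element and is activated by the same kinases (chromosome 15, 100227819 to 100261244), had 2500 reads (104 CPM) in the library labelled CREB KO and 2969 (112 CPM) in the wildtype library. Atf1 was 1.08-fold lower (1.02 to 1.14), past counting error. Its log2 ratio of -0.11 was, however, within the SD of 0.12 across the 2162 genes of 100 CPM or more.

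Atf1 made up nearly all reads of the subfamily in both libraries. It held 93.6% (92.6 to 94.5) of them in the library labelled CREB KO and 93.4% (92.4 to 94.2) in the wildtype library. Crem held 5.50% (4.67 to 6.43) in the library labelled CREB KO and 6.23% (5.41 to 7.12) in the wildtype library, so its share overlapped between libraries, as did that of Atf1. The 3 genes summed to 2672 reads in the library labelled CREB KO and 3180 in the wildtype library, a ratio of 0.926 (0.879 to 0.975). These are shares of counted reads. Atf1 has 1 curated RefSeq transcript, Creb1 3 and Crem 18, and whether reads common to several transcripts were dropped in counting was not tested.

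Crem carries a limit of its own. Its exons share 472 bases with Gm6225, a gene annotated on the opposite strand, and the labels do not state the strand setting of the counting. Gm6225 had 80 reads in the library labelled CREB KO and 51 in the wildtype library, a ratio of 1.72 (1.2 to 2.51), opposite to that of Crem. Summed, Crem and Gm6225 had 227 reads in the library labelled CREB KO and 249 in the wildtype library, a ratio of 1.0 (0.836 to 1.21). Whether reads moved between them in counting was not tested.

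ATF2 and ATF7 form a second subfamily, which stress-activated MAP kinases phosphorylate and which also binds CRE-like elements. Atf7 (chromosome 15, 102525946 to 102625464) had 264 reads (11.0 CPM) in the library labelled CREB KO, against 183 (6.92 CPM) in the wildtype library. At a ratio of 1.59 (1.31 to 1.93) it was the only gene of the 10, besides Creb1, that passed 1.5-fold with an interval above 1. Of the 3247 genes of 1 to 10 CPM, 7.27% passed the same rule, and 220 (6.78%) had a higher ratio than Atf7. Atf7, at 8.96 CPM on average, lies at the upper edge of this band. Of the 5053 genes of 10 to 100 CPM, 0.416% were higher by that rule, and 2.24% of all genes averaging at least 1 CPM had a higher ratio. Atf7 shares 1284 exon bases (11.7%) with the overlapping gene Gm28047, which had 0 reads in both libraries. Atf2 (chromosome 2, 73816509 to 73892639) had 5 reads in the library labelled CREB KO and 4 in the wildtype library. Its ratio of 1.33 had an interval of 0.297 to 6.94, so that no difference in either direction was detectable at this depth. Of the reads of this pair, Atf7 held 98.1% (95.7 to 99.4) in the library labelled CREB KO and 97.9% (94.6 to 99.4) in the wildtype library.

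**Figure D2:**
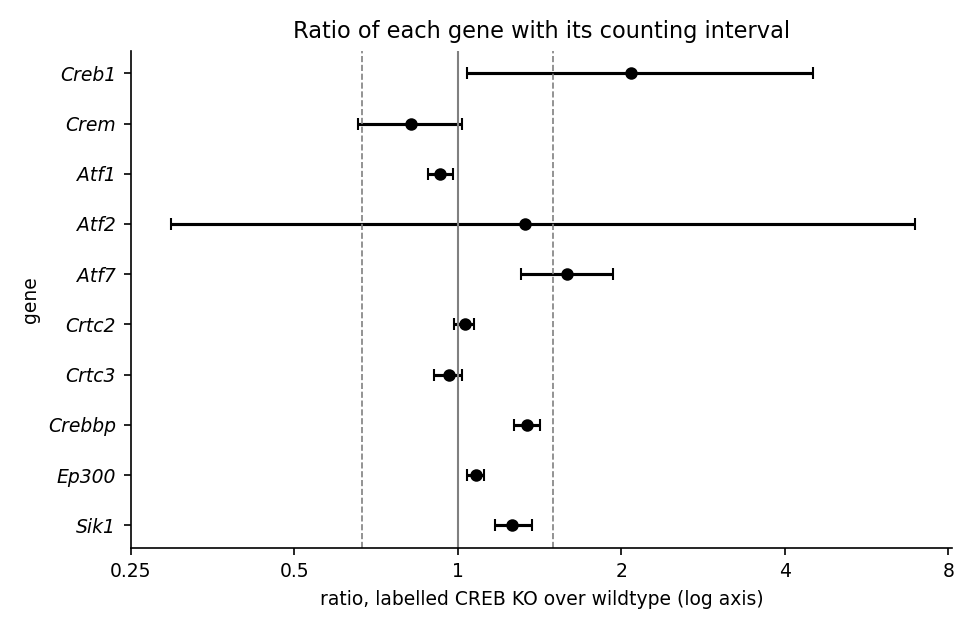
Ratio of each gene, library labelled CREB KO over wildtype library (log axis), with exact conditional binomial 95% intervals for counting error. The solid line marks 1 and the dashed lines mark 1.5-fold either way. Creb1 and Atf7 lie to the right of 1.5-fold, and the intervals of Crebbp, Ep300 and Sik1 lie above 1 but below 1.5-fold.

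The CRTC coactivators differed little between libraries. Crtc2 (chromosome 3, 90254163 to 90264125), a CRTC that binds the leucine zipper of CREB, had 4185 reads (174 CPM) in the library labelled CREB KO and 4494 (170 CPM) in the wildtype library. Crtc3 (chromosome 7, 80586627 to 80688877) had 1907 reads (79.5 CPM) in the library labelled CREB KO and 2184 (82.6 CPM) in the wildtype library. Their ratios were 1.03 (0.984 to 1.07) and 0.962 (0.905 to 1.02), and both intervals include 1. Crtc1, the third gene of this family, had 871 reads in the library labelled CREB KO, 869 in the wildtype library and a ratio of 1.10 (1.0 to 1.21). Crtc2 held 60.1% of the reads of all 3 genes in the library labelled CREB KO (58.9 to 61.3) and 59.5% (58.4 to 60.7) in the wildtype library. Crtc2 was thus the leading CRTC by reads in both.

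Of the acetyltransferases that phosphorylated CREB recruits, Crebbp was higher in the library labelled CREB KO by more than its partner. Crebbp (chromosome 16, 4081328 to 4213997) had 2890 reads (120 CPM) in the library labelled CREB KO, against 2372 (89.7 CPM) in the wildtype library. Ep300 (chromosome 15, 81585351 to 81652077) had 6276 reads (261 CPM) in the library labelled CREB KO and 6396 (242 CPM) in the wildtype library. The ratios were 1.34 (1.27 to 1.42) for Crebbp and 1.08 (1.04 to 1.12) for Ep300, with intervals that do not overlap. Crebbp accordingly held 31.5% (30.6 to 32.5) of the reads of the pair in the library labelled CREB KO and 27.1% (26.1 to 28.0) in the wildtype library, a comparison that does not rest on scaling.

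Of the 2162 genes of 100 CPM or more, a band chosen after the data were seen, 5 had a higher ratio than Crebbp: Lars2, Basp1, Malat1, Lama5 and Mpp1, named after their values were seen. At 1.2-fold with an interval above 1, 1.2% of those 2162 genes were higher. Crebbp, at 105 CPM on average, lies at the lower edge of this band; of the genes of 10 to 100 CPM 4.85% were higher by that rule, and 5.20% of all genes averaging at least 1 CPM had a higher ratio. Crebbp has a long messenger RNA, with a longest annotated transcript of 10820 bases. Among the 116 such genes whose longest transcript has 8000 bases or more, 4.31% were higher by that rule and the median log2 ratio was 0.04, against -0.02 for the shorter ones. Lama5 at 1.41 had the only higher ratio than Crebbp among these 116. The part of transcript length in the Crebbp ratio was not tested. Ep300, with a longest transcript of 9566 bases, had 230 genes (10.6%) of its level above it.

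**Figure D3:**
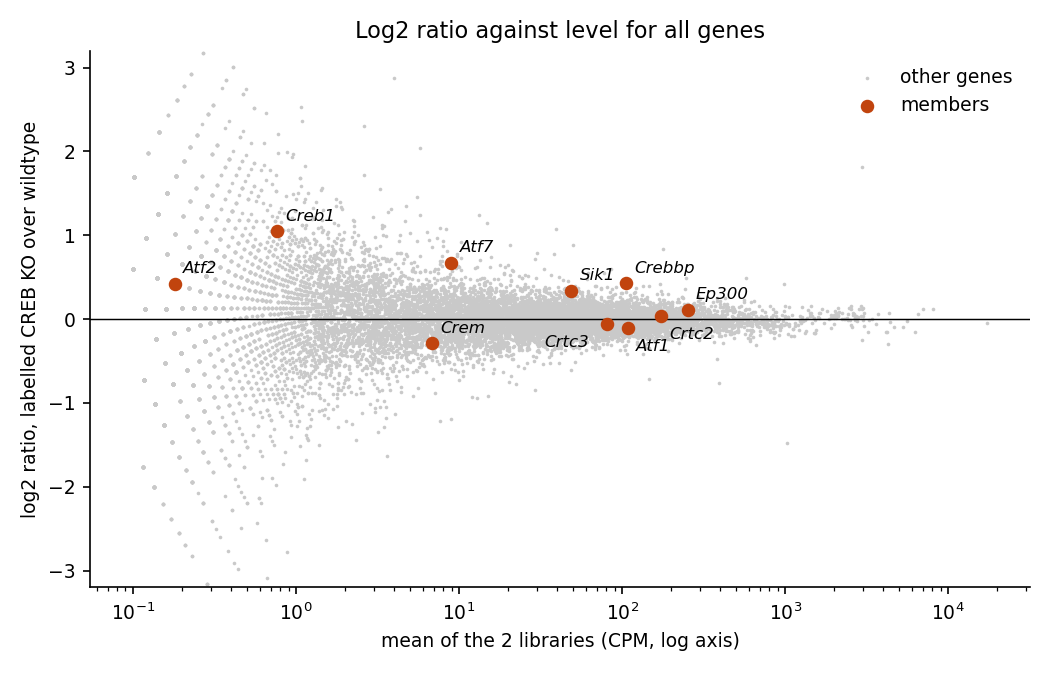
Log2 ratio, library labelled CREB KO over wildtype library, against the mean level of the 2 libraries in CPM (log axis), with the 10 genes in colour and other genes in grey; genes under 0.1 CPM and ratios beyond the axis are not drawn. The grey cloud narrows as the level increases, and Crebbp at 0.43 lies on its upper edge while Creb1 at 1.05 lies where the cloud is wide.

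Sik1, the salt-inducible kinase whose gene CREB is known to activate (chromosome 17, 31844250 to 31855804), was higher in the library labelled CREB KO. It had 1308 reads (54.5 CPM) in that library, against 1142 (43.2 CPM) in the wildtype library, a ratio of 1.26 (1.17 to 1.37). Of the 5053 genes of 10 to 100 CPM, 128 (2.53%) had a higher ratio, and 4.85% were higher at 1.2-fold with an interval above 1. Sik2 had 422 reads in the library labelled CREB KO and 397 in the wildtype library, with a ratio of 1.17 (1.02 to 1.35). Sik3 had 3747 reads in the library labelled CREB KO and 4199 in the wildtype library, with a ratio of 0.984 (0.941 to 1.03). Sik1 held 23.9% (22.8 to 25.0) of the reads of the 3 kinases in the library labelled CREB KO and 19.9% (18.9 to 21.0) in the wildtype library. Sik3 held 68.4% (67.2 to 69.6) in the library labelled CREB KO and 73.2% (72.0 to 74.3) in the wildtype library, so the shares of both genes lay apart by more than counting error.

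**Figure D4:**
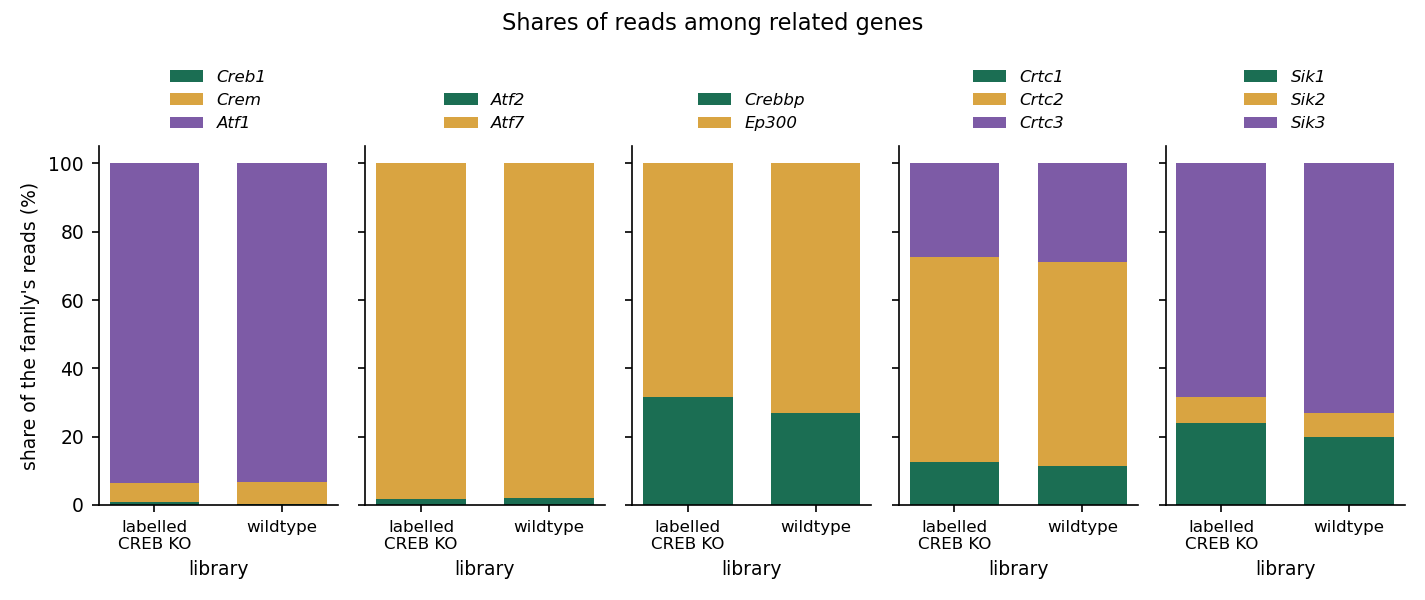
Share of reads (%) held by each gene within its family, with the library labelled CREB KO at the left and the wildtype library at the right of each panel. Atf1 fills over 90% of the CREB subfamily in both bars, while Crebbp and Sik1 hold 31.5% and 23.9% of theirs in the library labelled CREB KO, and 27.1% and 19.9% in the wildtype library.

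Counted over all 10 genes, 2 (Creb1 and Atf7) were higher by 1.5-fold with an interval above 1 and 0 were lower. Over all 15574 genes, with no filter on level, 3.35% were higher and 1.93% lower by this rule. Among the 10462 genes averaging at least 1 CPM, 2.48% were higher and 1.5% lower, and 8 of the 10 genes reached that mean, all but Creb1 and Atf2. At 1.2-fold, 4 of the 10 were higher (Creb1, Atf7, Crebbp and Sik1) and 0 lower, beside 5.84% higher and 4.60% lower of the 15574 genes. Of the 8 genes averaging at least 1 CPM, 3 were higher at 1.2-fold, beside 6.19% higher and 5.48% lower of the 10462 genes. An interval above 1 at any fold was found for 5, those 4 and Ep300, and an interval below 1 for Atf1. Of the 15574 genes, 12.6% had an interval above 1 and 14.0% below. Within the 8 genes, 4 had an interval above 1 and 1 below, beside 16.2% above and 19.5% below in the 10462 genes. Intervals narrow with level, and of genes of 100 CPM or more 24.0% lay above 1 and 34.6% below. Of the 116 of these with a longest transcript of 8000 bases or more, as Crebbp and Ep300 have, 44.0% lay above and 19.0% below. The median log2 ratio of the 10 genes was 0.22, against 0.00 for the 15574 genes. It was 0.08 for the 8 genes averaging at least 1 CPM, against -0.01 for the 10462, and the difference between the medians is the inclusion of Creb1 and Atf2, which had few reads.

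Levels of different genes can be compared only per length, here as CPM divided by the kilobases of annotated exon (RPKM). The order is that of counted reads, and whether reads common to several transcripts of a gene were dropped in counting was not tested. In the library labelled CREB KO the order was Crtc2 at 42.6, Atf1 at 34.0, Ep300 at 18.3, Sik1 at 10.6, Crebbp at 8.89 and Crtc3 at 8.07 RPKM. Crem at 1.04 and Atf7 at 1.0 RPKM followed, and Creb1 at 0.0758 and Atf2 at 0.0254 RPKM came last. In the wildtype library Crtc2 at 41.5, Atf1 at 36.7 and Ep300 at 16.9 RPKM again led. Sik1 at 8.41 and Crtc3 at 8.38 RPKM came next, then Crebbp at 6.62, Crem at 1.27, Atf7 at 0.630, Creb1 at 0.0358 and Atf2 at 0.0185 RPKM. Neighbours whose counting intervals overlapped were Crem and Atf7 in the library labelled CREB KO, Sik1 and Crtc3 in the wildtype library, and Creb1 and Atf2 in both. Crebbp thus stood above Crtc3 in the library labelled CREB KO and below it in the wildtype library, each time with intervals apart, but with lengths of the longest transcripts it stood below Crtc3 in both. With those lengths Crtc3 also stood above Sik1, at 15.5 against 12.1 RPKM in the library labelled CREB KO and 16.1 against 9.55 RPKM in the wildtype library.

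Among the 10 genes, the low levels went with several annotated transcripts. The 6 genes above 40 CPM have 1 curated RefSeq transcript each (Atf1, Crtc3, Crebbp, Ep300 and Sik1) or 2 (Crtc2). The 4 at or under 11.0 CPM in both libraries have 3 (Creb1 and Atf7), 9 (Atf2) and 18 (Crem). Among listed protein-coding genes the median level was 15.2 CPM for 8301 genes with 1 curated transcript and 4.33 CPM for 3049 genes with 3 or more. The share under 1 CPM, where Creb1 and Atf2 lie, was 30.2% with 1 and 31.9% with 3 or more. The share under 12 CPM, where all 4 lie on average, was 47.6% with 1 and 62.5% with 3 or more. Single genes can depart from this: Prkar1a, with 8, had 660 CPM in the library labelled CREB KO and 662 in the wildtype library. Shared sequence was small for the lowest genes: 0.244% of the 50-base words of Creb1 transcripts, and 1.73% of those of Atf2, occur in transcripts of another gene. For Atf1 it was 12.1%, among them in its pseudogene Atf1-ps, which had 0 reads in both libraries, so the Atf1 count is uncertain by that stretch. Whether reads common to several transcripts of a gene were dropped in counting was not tested, and a low count here does not show a low level of messenger RNA.

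**Figure D5:**
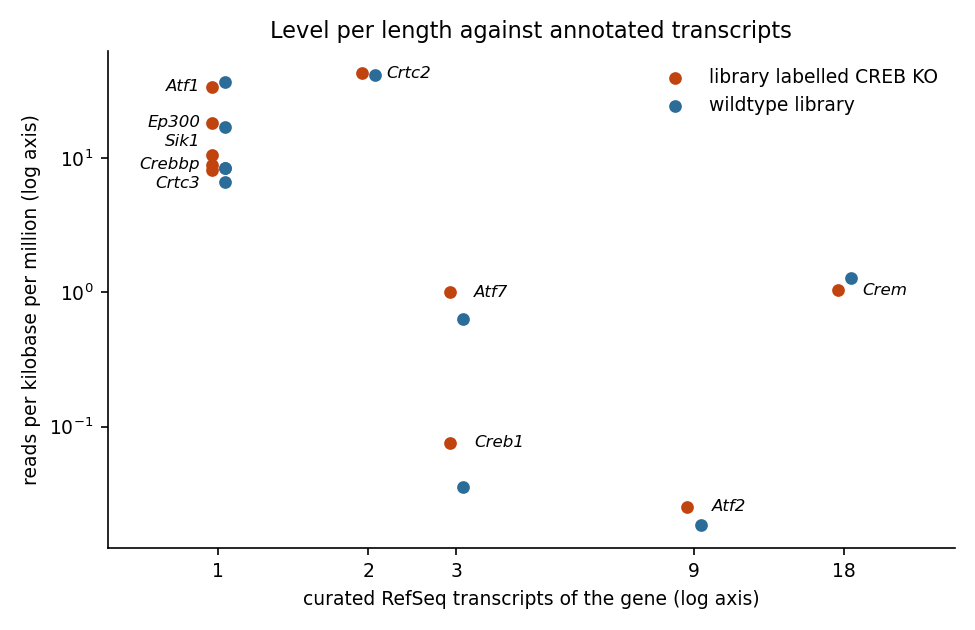
Level per length (RPKM, log axis) of the 10 genes against the number of curated RefSeq transcripts (log axis), one point per library, shifted slightly apart. The 6 genes with 1 or 2 transcripts lie above 6 RPKM and the 4 with 3 or more lie below 1.5 RPKM.

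Other genes of the pathway were read from lists. Of 17 other CREB and ATF genes, 13 had a mean of 1 CPM or more and 0 passed 1.5-fold with an interval excluding 1, with a median log2 ratio of 0.06. Batf, an AP-1 partner that Th17 cells need, was 1.14-fold lower (1.08 to 1.2), with 2389 reads in the library labelled CREB KO and 2998 in the wildtype library. Atf6b at 1.08 (1.01 to 1.14) and Creb3l2 at 1.09 (1.01 to 1.18), both membrane-bound factors, were the next highest by level. Of the 13 intervals, 3 lay above 1 and 5 below, where 16.2% of all genes averaging at least 1 CPM lay above and 19.5% below. The third of those above 1 was Atf3, a stress-induced factor, chosen after its values were seen. It had 1353 reads in the library labelled CREB KO and 1207 in the wildtype library, a ratio of 1.24 (1.14 to 1.34).

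Among 22 kinases known to phosphorylate CREB or its relatives, 19 reached 1 CPM, 0 were higher and 1 was lower by 1.5-fold, with a median log2 ratio of -0.08. Camk1, a calmodulin-dependent kinase, had 15 reads in the library labelled CREB KO, against 45 in the wildtype library, and was 2.67-fold lower (1.49 to 5.26). By the 1.5-fold rule, 1.5% of all genes averaging at least 1 CPM were lower, and 4.31% of those of 1 to 10 CPM, where Camk1 lies. The stress kinase gene Mapkapk2 was 1.10-fold lower (1.07 to 1.12), Mapkapk3 was 1.05-fold lower (1.02 to 1.09), and Gsk3a, the kinase of a follow-up site, 1.05-fold lower (1.01 to 1.08). Of the 19 intervals, 8 lay below 1 and 2 above, where 19.5% of all genes averaging at least 1 CPM lay below and 16.2% above. Intervals narrow with level, and of genes of 100 CPM or more 34.6% lay below 1. Among those above 1 was Prkacb, a catalytic subunit of protein kinase A, named after its values were seen, at 1.42 (1.05 to 1.94), with 101 reads in the library labelled CREB KO and 78 in the wildtype library.

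Of 19 genes that act on the CRTC proteins (SIK kinases, their activator LKB1 and its partners, calcineurin subunits and 14-3-3 proteins, with Crtc1), 18 reached 1 CPM and 0 passed 1.5-fold, with a median log2 ratio of -0.02. The 14-3-3 genes Ywhah, at 0.988 (0.971 to 1.01), and Ywhae, at 0.987 (0.968 to 1.01), were within counting error of 1, and Ywhab was 1.10-fold lower (1.07 to 1.13). Stk11, which encodes LKB1, had a ratio of 1.08 (1.04 to 1.12).

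Textbook CREB targets went both ways. Of 25 listed, Crem and Sik1 included, 19 reached 1 CPM, of which 2 were higher (Il2 and Ptgs2), 1 was lower (Areg) and 16 were neither, with a median log2 ratio of 0.04. Of all genes averaging at least 1 CPM, 2.48% were higher and 1.5% lower. Below that level, the nuclear receptor gene Nr4a2 was also past 1.5-fold, with 16 reads in the library labelled CREB KO, against 33 in the wildtype library, and was 1.85-fold lower (1.0 to 3.64). As a ratio its interval was 0.275 to 0.999, which barely excludes 1. Of the 5112 genes under 1 CPM on average, 2.80% were lower by this rule. Areg, whose promoter stretch above holds a full CRE, had 268 reads in the library labelled CREB KO, against 447 in the wildtype library, and was 1.51-fold lower (1.30 to 1.77). Its fold lies at the threshold, and the call was lost in the single random thinning of the wildtype library to the depth of the other. Dusp1, a phosphatase gene whose stretch also holds one, had 1012 reads in the library labelled CREB KO, 1120 in the wildtype library and a ratio of 0.996 (0.914 to 1.09). Ptgs2, which encodes cyclooxygenase-2, had 89 reads in the library labelled CREB KO and 63 in the wildtype library, a ratio of 1.55 (1.12 to 2.19). Il2, the T cell growth factor gene, had 558 reads in the library labelled CREB KO, against 401 in the wildtype library, and a ratio of 1.53 (1.35 to 1.75). The most highly counted targets were Junb at 1.08 (1.07 to 1.10), Ccna2 at 0.858 (0.837 to 0.880) and Mcl1 at 0.954 (0.929 to 0.979). Of the 19 intervals, 8 lay above 1 and 6 below, where 16.2% of all genes averaging at least 1 CPM lay above and 19.5% below. Intervals narrow with level, and of genes of 100 CPM or more, where several of these targets lie, 24.0% lay above 1 and 34.6% below. Among the targets with an interval below 1 were Fos at 0.716 (0.632 to 0.811) and Nr4a3 at 0.816 (0.744 to 0.894), named after their values were seen.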

How the data were processed

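The deposited values were raw counts, 1 whole number of unique reads for each gene symbol in each library, per the file headers. Tools and build named in the submitters' processing notes were bcl2fastq, HTSeq and mm10. The aligner and strand setting were not given in these sources. A gene listed in 1 file only was taken as 0 in the other. Libraries were scaled by trimmed mean of M-values (TMM) with edgeR 4.0.16 in R 4.3.3, and ratios used a prior count of 0.5. The quasi-likelihood test could not be fitted with 1 library per group. Ratios have exact conditional binomial 95% intervals, computed on all genes in Python 3.11.15 with scipy 1.17.1 and tested on simulated data. The simulated counts were Poisson, the error that the intervals assume, so this checked the computation only. It covered genes of 10 CPM or more, which leaves out the mean levels of Creb1, Crem, Atf2 and Atf7. A call meant 1.5-fold or more with an interval excluding 1.

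Positions, exon lengths (union of exons) and transcripts came from GENCODE M21 (GRCm38), curated transcripts and promoters from RefSeq. The genes and lists were chosen with earlier results of these data known. Genes named outside the 10 were those past 1.5-fold and up to 3 of the highest level per list; others are named where a result turns on them. Alternatives were total-count, DESeq2 1.42.0 and upper-quartile scaling, a larger prior count (5), a thinned wildtype library, other folds and filters, and longest transcripts. Background by level, by transcript length and by interval alone were chosen after seeing the data.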

Additional observations from a re-analysis of the deposited data

How the results depend on the processing

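The 10 ratios were recomputed under total-count, DESeq2 and upper-quartile scaling, a prior count of 5 and thinning of the wildtype library to the depth of the other, and all 50 values stayed inside the main intervals. The count of genes higher by 1.5-fold, 2 of 10, became 4 at 1.2-fold, 1 at 2-fold, 0 with a mean of 10 CPM or more and 5 with an interval above 1 at any fold, which also gave 1 lower gene in place of 0. Thinning made 1 CREB kinase gene pass in the higher direction, in place of 0, and left 0 CREB targets lower, in place of 1 (Areg). It also put the Crem ratio at 0.791 (0.632 to 0.987), an interval that excludes 1, unlike the main one. Thinning was a single random draw that discards wildtype reads, and other draws were not made. The other 78 of 80 list counts stayed within 1.5 times. All 13 wildtype shares stayed inside their intervals under thinning. Over all genes of 1 CPM or more, 259 were higher and 157 lower by 1.5-fold; with no filter 521 and 300, with a mean of 10 CPM or more 23 and 17, at 1.2-fold 648 and 573, and at 2-fold 70 and 46. Lengths of the longest transcripts gave levels 1.14 to 2.01 times those of the union of exons. No paired analysis was possible because each genotype has 1 library, and for the same reason no replicate could be left out. Depth limits Creb1 and Atf2 most, with 25 and 5 reads in the library labelled CREB KO and 13 and 4 in the wildtype library.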

Other observations

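Other acetyltransferase and deacetylase genes gave values beside those of Crebbp and Ep300. Of 11 other lysine acetyltransferase genes, 9 reached 1 CPM, 0 were higher and 1 was lower by 1.5-fold, with a median log2 ratio of -0.02. Kat2a, which encodes GCN5, had 43 reads in the library labelled CREB KO, against 84 in the wildtype library, and was 1.76-fold lower (1.21 to 2.62). By the 1.5-fold rule, 2.48% of all genes averaging at least 1 CPM were higher and 1.5% lower. Of those of 1 to 10 CPM, where Kat2a and Hdac5 lie, 7.27% were higher and 4.31% lower. The steroid receptor coactivator gene Ncoa3 had a ratio of 1.06 (1.02 to 1.09), Kat6a 0.988 (0.943 to 1.03), and Hat1, which acetylates new histones, was 1.16-fold lower (1.11 to 1.22). Class IIa histone deacetylases, which salt-inducible kinases also phosphorylate, included Hdac5, with 48 reads in the library labelled CREB KO and 30 in the wildtype library, a ratio of 1.75 (1.09 to 2.88). Hdac4 had 1475 reads in the library labelled CREB KO, 1405 in the wildtype library and a ratio of 1.16 (1.07 to 1.25). Hdac7 had 36 reads in the library labelled CREB KO, 42 in the wildtype library and a ratio of 0.945 (0.588 to 1.51).

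None of the 3 measured regulatory genes of protein kinase A passed 1.5-fold (median log2 ratio -0.16). Prkar1a had 15841 reads in the library labelled CREB KO, 17524 in the wildtype library and a ratio of 0.996 (0.975 to 1.02). Prkar2a was 1.12-fold lower in the library labelled CREB KO (1.03 to 1.21), and Prkar2b 1.34-fold lower (1.06 to 1.71), with 120 reads in the library labelled CREB KO and 178 in the wildtype library. Of 6 phosphatase genes that act on CREB or its pathway, 0 passed 1.5-fold and 5 had an interval below 1, where 34.6% of all genes of 100 CPM or more did (median log2 ratio -0.07). Ppp1ca and Ppp1cc were each 1.05-fold lower (1.03 to 1.07 for both), and Ppp2ca 1.11-fold lower (1.09 to 1.14).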
